A study of Mus musculus with 9 samples.

Results

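Nuclear pore complexes are ring-shaped channels built from nucleoporins. Every mRNA, ribosomal subunit, tRNA and transcription factor that crosses the nuclear envelope passes through them. Large cargo is carried by soluble receptors: importin alpha reads a nuclear localisation signal and is bound by importin beta (Kpnb1), other importins and the transportins bind their cargo directly, and exportins such as Xpo1 (CRM1) take cargo out together with the GTP-bound form of the small GTPase Ran. The mRNAs of 47 such genes were followed here, 25 nucleoporins and 22 transport receptors, out of 28379 genes in the deposited table. The members were chosen by gene name (Nup followed by a digit, Xpo by a digit or t, and Ipo, Kpna, Kpnb or Tnpo by a digit, plus Ranbp2, Rae1, Aaas, Tpr and Seh1l, without names ending in -ps, which left out 1 name). No measured value enters that name pattern, but the family was put forward with earlier comparisons of the same counts known. Counts and medians over the members are therefore descriptions, and the adjusted p of a single gene comes from the fit of all 17002 genes that passed a filter on low counts. All 47 members passed that filter.

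Bone marrow-derived macrophages (BMDMs) of 10-week-old C57BL/6J mice were cultured for 48 h in 3 groups of 3 libraries. All groups received 20 ng/mL M-CSF, the growth factor that keeps macrophages and osteoclast precursors alive and dividing. The PBS group received nothing further that the labels name, the RANKL group received 100 ng/mL RANKL, the cytokine that turns these cells into osteoclasts, and the last group, RANKL + Vit D + K (the vitamin group), had the same RANKL plus 1000 nM vitamin D (calcitriol) and vitamin K (MK4, at 20 μM by the labels and 40 μM by the study's methods). The vitamins were given together, with RANKL present, so neither vitamin's own part can be read. The labels do not say whether the replicates came from separate animals or cultures and the methods speak of pooled RNA, so p-values measure the spread between these libraries, which may be technical. The libraries held 65915112 to 68229647 counts each. Of 10 osteoclast marker genes 9 rose with RANKL and 8 fell against RANKL with the vitamins, while 1 rose (Itgb3, log2 fold change 2.08, adjusted p = 0.0186). Of 8 macrophage markers 6 fell with the vitamins and 1 rose (Cd68, 0.53, adjusted p = 0.0143). Bulk RNA cannot tell fewer cells of a type from less RNA per cell.

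With the vitamins, the members took a larger share of the transcriptome. They made up 0.329%, 0.339% and 0.346% of all counts in the PBS libraries, 0.352%, 0.465% and 0.369% in the RANKL libraries and 0.670%, 0.569% and 0.646% in the vitamin libraries. The vitamin libraries lay above all others, and RANKL replicate 2 lay between its own group and theirs. Nucleoporins (0.226% to 0.263% with the vitamins, 0.133% to 0.190% in the other groups) and transport receptors (0.343% to 0.406%, against 0.196% to 0.275%) followed the same order. Of the 47 members, 31 rose with the vitamins against RANKL alone and 0 fell, with 35 at an unadjusted p under 0.05, where 44.7% of all tested genes had one. By the same test (edgeR's quasi-likelihood test, adjusted p under 0.05), 16.4% of all tested genes rose and 17.2% fell. Over 9 fits that each left out 1 library, 24 (without RANKL replicate 1, where 8.91% of tested genes rose) to 36 (without RANKL replicate 2, where 14.2% rose) members rose. With limma 25 rose, against 12.5% of tested genes on log2(FPKM + 0.1) and 12.7% on log2(FPKM + 1), and with a replicate block 35 rose, against 17.4%. The members' median log2 fold change was 0.71, a 1.63-fold higher level, beside a median of -0.04 over all tested genes. Single members ranged from -0.56 (Nup210l) to 2.01 (Kpna4). The FPKM values of the vitamin and RANKL libraries did not overlap for 25 members, all higher with the vitamins, where 17.0% of tested genes were higher and 29.2% lower without overlap.

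**Figure D1:**
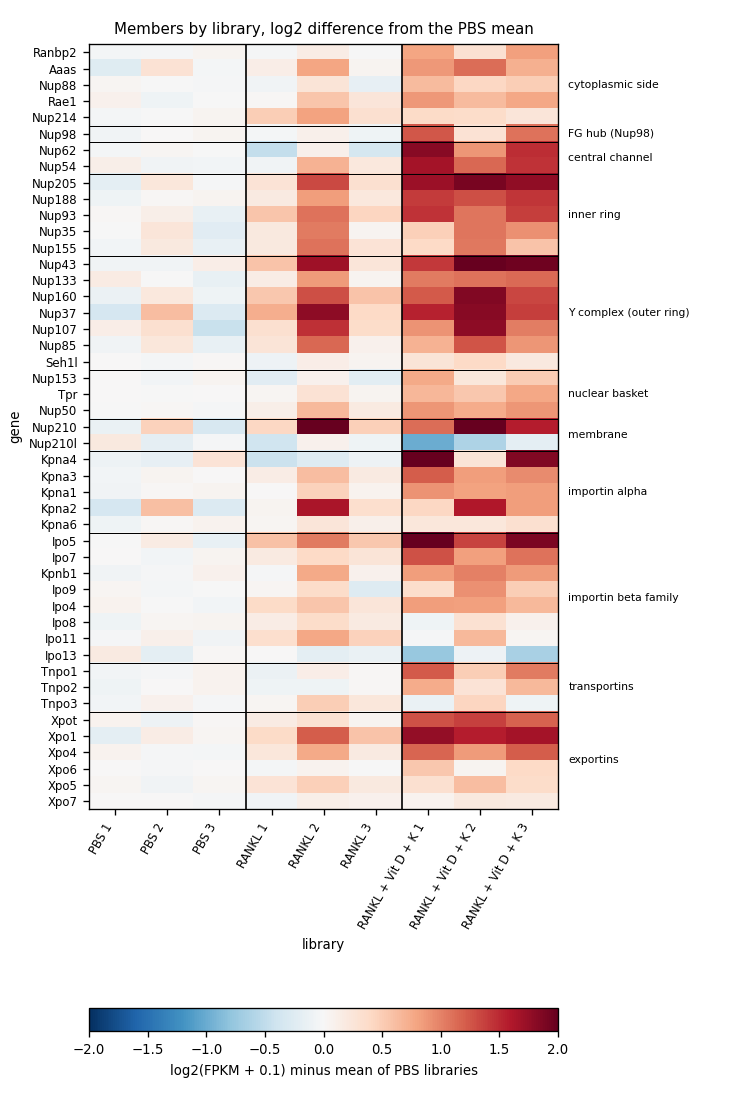
Each row is 1 of the 47 members, ordered by role, and each column 1 of the 9 libraries; the colour is log2(FPKM + 0.1) minus the mean of the 3 PBS libraries, with the scale ending at -2 and 2. The RANKL + Vit D + K columns are red for most rows, RANKL replicate 2 is redder than RANKL replicates 1 and 3, and Ipo13 and Nup210l are blue with the vitamins.

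RANKL alone was compared with PBS in the same model. Here 0 members rose and 0 fell in edgeR's quasi-likelihood test (2.35% of tested genes rose and 1.26% fell), while 11 had an unadjusted p under 0.05, against 18.6% of tested genes. DESeq2 called 4 members higher (Nup160, Nup214, Nup93 and Xpo1), against 6.07% of its tested genes, and edgeR with the replicate number as a block called 1 (Nup160, adjusted p = 0.0192), against 3.16%. With only these 2 groups in the model 4 members were higher, against 6.32%. The median log2 fold change was 0.18, beside -0.04 over all tested genes. In FPKM, 18 members were higher with RANKL without overlap of the libraries. Of tested genes, 22.4% were higher and 12.9% lower in that way. FPKM values are scaled apart from the fit: Tpr is among the 18 with a fitted log2 fold change of 0.0027. A count of 0 called members beside 2.35% and 1.26% of tested genes is not a result about the members. Leaving out vitamin replicate 2 from the shared model gave 5 calls (Ipo11, Ipo5, Nup160, Nup214 and Nup93), against 5.46% of tested genes. Leaving out RANKL replicate 2 lowered the median to 0.04.

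Against PBS, the libraries with RANKL and both vitamins had 38 members higher and 1 lower (Ipo13), where 19.8% of tested genes rose and 21.0% fell. Their median log2 fold change was 0.92, a 1.9-fold higher level. Libraries did not overlap for 40 members that were higher and 1 that was lower (Nup210l), against 24.8% and 27.7% of tested genes. The comparisons share libraries, so their calls are set side by side only: 30 members were higher with the vitamins against both other groups, 1 against RANKL alone (Xpo6), 8 against PBS alone, and 8 in neither. Of the 25 nucleoporins, 24 were called higher against PBS and 17 against RANKL, the latter being 11 without RANKL replicate 1 and 23 without RANKL replicate 2. Of the 22 transport receptors, 14 were called higher in each comparison.

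**Figure D2:**
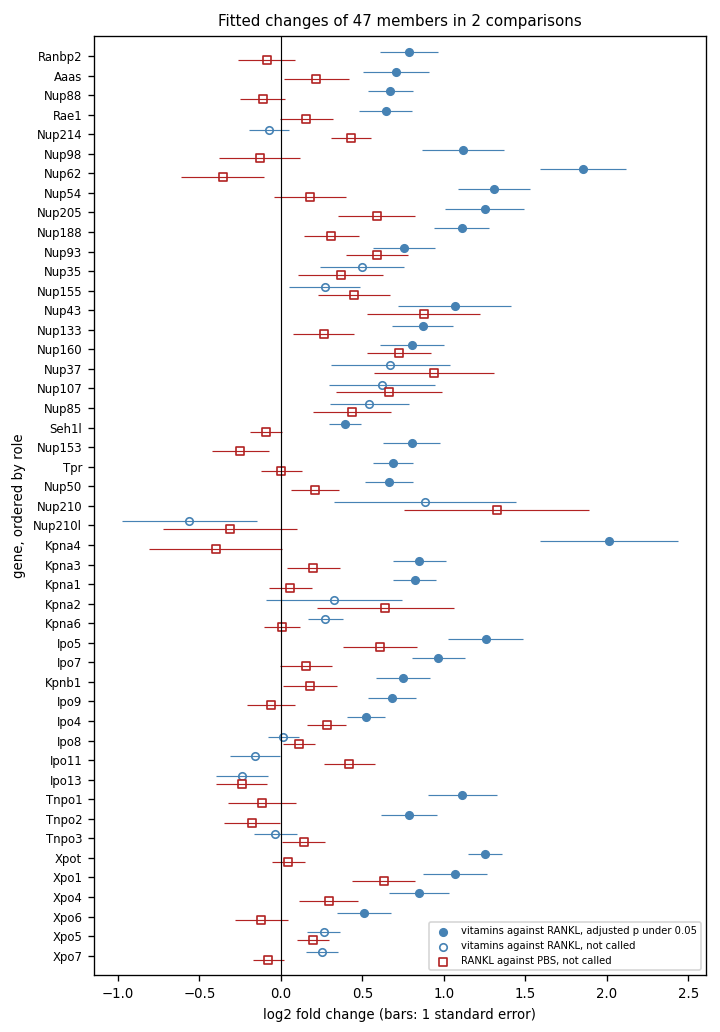
Log2 fold changes of the 47 members (rows, ordered by role) for RANKL + Vit D + K against RANKL (circles) and RANKL against PBS (squares), with bars of 1 standard error; filled symbols passed an adjusted p of 0.05. Of the circles 31 are filled, all to the right of 0, and 0 of the squares are filled.

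The central channel held the highest level and one of the largest changes. Nup62, whose phenylalanine-glycine (FG) repeats help to fill the channel, had the highest mean FPKM of the members (40.2 over 9 libraries) and lies at chr7:44816088-44830812 on the + strand (ENSMUSG00000109511). Its FPKM was 25.7, 27.0 and 26.3 in PBS, 18.8, 28.2 and 20.6 with RANKL and 93.0, 48.7 and 73.2 with the vitamins. All vitamin libraries lay above all others, with replicate 2 the lowest of them. The log2 fold change against RANKL was 1.85 ± 0.26 (SE, n = 3 per group), an adjusted p of 0.0016. Nup62 shares 571 bases with Atf5 on the other strand, of which 82 are exonic in both genes (of 2854 exonic bases of Nup62). Atf5, a stress-related transcription factor, itself rose by a log2 fold change of 2.46 and had 0.683 times the counts of Nup62. Whether reads were counted by strand is not stated, and the part of Atf5 reads in the Nup62 count was not tested. Nup54, which assembles with Nup62 in the channel, overlaps only a small RNA gene that was near 0. It was at 4.90, 4.29 and 4.33 FPKM in PBS, at 4.28, 7.32 and 5.20 with RANKL and at 14.4, 10.1 and 12.4 with the vitamins, again without overlap (log2 fold change 1.31 ± 0.22, adjusted p = 0.00336). Nup98, an FG nucleoporin that also binds mRNA export factors, was at 7.20, 7.57 and 7.83 FPKM in PBS and at 7.34, 8.10 and 7.11 with RANKL. It reached 17.9, 9.25 and 16.1 with the vitamins, so that replicate 2 lay just above the highest RANKL library (log2 fold change 1.12 ± 0.25, adjusted p = 0.00981).

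The inner ring anchors the channel to the pore membrane. Its large scaffold proteins Nup205 and Nup188 rose together. Nup188 was at 5.30, 5.71 and 5.83 FPKM in PBS, at 6.38, 10.1 and 6.48 with RANKL and at 15.0, 13.8 and 15.3 with the vitamins (log2 fold change against RANKL 1.11 ± 0.17, adjusted p = 0.0021). Nup205 went from 3.38, 4.57 and 3.82 in PBS and 4.74, 9.90 and 4.86 with RANKL to 13.0, 14.8 and 13.6 with the vitamins (1.25 ± 0.24, adjusted p = 0.00555). For both genes the vitamin libraries lay close together and above RANKL replicate 2. Nup93, the linker of the ring, was at 7.60, 8.10 and 6.72 FPKM in PBS, at 11.0, 15.9 and 10.1 with RANKL and at 20.4, 15.7 and 19.5 with the vitamins. Vitamin replicate 2 lay just below RANKL replicate 2, so these groups overlapped, and the call (log2 fold change 0.76, adjusted p = 0.0155) was lost in 4 of 9 fits that each left out 1 library. The remaining ring members, Nup155 (0.27, adjusted p = 0.376) and Nup35 (0.50, adjusted p = 0.167), did not pass the test against RANKL, although all 5 ring members were higher than in PBS. All 5 rose against RANKL without RANKL replicate 2, and 3 rose against PBS without PBS replicate 1 or 3 or vitamin replicate 3. In replicates 1 and 3 Nup155 stood at 0.161 and 0.191 times the FPKM of Nup93 with the vitamins. That ratio was 0.259 and 0.297 with RANKL and 0.313 and 0.334 in PBS. In replicate 2 it was 0.335 with the vitamins, 0.338 with RANKL and 0.353 in PBS.

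The outer ring is built from copies of the Y complex. Of its 7 members here 4 rose against RANKL (Nup133, Nup160, Nup43 and Seh1l), and all 7 rose against PBS. The 4 became 1 without RANKL replicate 1, 2 without RANKL replicate 3 or vitamin replicate 1, and 7 without RANKL replicate 2. Nup107, its central member, was at 3.36, 3.87 and 2.22 FPKM in PBS, at 3.86, 8.67 and 4.0 with RANKL and at 5.83, 10.8 and 6.37 with the vitamins. Replicate 2 was the highest library in each group, so the groups overlapped between RANKL and the vitamins (log2 fold change 0.62, adjusted p = 0.171, 0.0252 without RANKL replicate 2 and 0.0328 with a replicate block). Against PBS the change was 1.28 ± 0.33 (adjusted p = 0.0135). Nup43, a small member at the edge of the Y, was at 0.914, 0.917 and 1.07 FPKM in PBS, at 1.48, 3.33 and 1.16 with RANKL and at 2.73, 4.48 and 4.01 with the vitamins. Its change against RANKL (1.07, adjusted p = 0.0407) was kept in 1 of 9 fits with a library left out. Seh1l, which also serves in nutrient signalling at the lysosome, had one of the smallest called changes (0.39 ± 0.10, adjusted p = 0.015), and its call against PBS was kept in 3 of 9 fits with a library left out.

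On the faces of the pore, 4 of 5 cytoplasmic-side members and all 3 basket members rose against RANKL, with log2 fold changes of 0.64 to 0.80. The 4 became 2 (Nup88 and Ranbp2) without RANKL replicate 1 or 3 or vitamin replicate 1 or 3, since Aaas was called in 4 and Rae1 in 5 of 9 such fits. Ranbp2, the giant protein of the cytoplasmic filaments that binds Ran and acts as a SUMO ligase, was at 17.7, 18.0 and 19.0 FPKM in PBS, at 17.9, 20.3 and 18.1 with RANKL and at 31.7, 22.5 and 32.2 with the vitamins (log2 fold change 0.79 ± 0.18, adjusted p = 0.0101). Tpr, the coiled-coil protein of the nuclear basket, was at 22.4, 22.2 and 22.6 in PBS, at 23.0, 27.5 and 23.2 with RANKL and at 35.5, 32.5 and 38.3 with the vitamins (0.69 ± 0.12, adjusted p = 0.00425). Nup153, which holds the basket to the ring, was at 14.2, 13.7 and 14.7 in PBS, at 12.1, 15.0 and 12.3 with RANKL and at 24.0, 16.7 and 20.3 with the vitamins (0.80 ± 0.17, adjusted p = 0.00885). For these 3 genes the vitamin values lay above those of both other groups. Nup214, the docking site of Xpo1 and of the mRNA helicase Ddx19, was the only one of these 8 that did not rise, at 8.41 to 11.8 FPKM with RANKL and 7.90 to 8.73 with the vitamins (log2 fold change -0.07, adjusted p = 0.673). Nup88, its partner, rose by 0.67 ± 0.14 (adjusted p = 0.00729), and shares 48 bases of exon with Rabep1 on the other strand, which rose by 1.39 and had 1.89 times the counts of Nup88.

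The 2 members that span the pore membrane were the lowest. Nup210, whose level changes during muscle and nerve differentiation, was at 0.225, 0.386 and 0.183 FPKM in PBS, at 0.374, 1.45 and 0.394 with RANKL and at 0.669, 2.11 and 0.953 with the vitamins. It rose against PBS (log2 fold change 2.21 ± 0.58, adjusted p = 0.015), and its change against RANKL was not called (0.88, adjusted p = 0.249) except when RANKL replicate 2 was left out (1.75, adjusted p = 0.0274) or a replicate block was used. The call against PBS was lost without PBS replicate 1 (adjusted p = 0.0581) or 3 (adjusted p = 0.0591). Nup210l, known mainly from the testis, had the lowest mean of the members, at 0.193 FPKM. Its values were 0.287, 0.200 and 0.234 in PBS, 0.157, 0.258 and 0.220 with RANKL and 0.0694, 0.121 and 0.195 with the vitamins, and neither comparison passed the test (adjusted p = 0.325 against RANKL and 0.121 against PBS).

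Among the receptors, the importin alphas diverged. Kpna4 (importin alpha 3, ENSMUSG00000027782, chr3:69067149-69127113, - strand), which carries NF-kappaB among other cargo, had the largest change of all members against RANKL. Its FPKM was 10.4, 10.0 and 13.6 in PBS, 8.33, 9.33 and 10.4 with RANKL, and 45.0, 13.5 and 40.9 with the vitamins. Replicates 1 and 3 of the vitamin group were far above the rest, and replicate 2 lay just below the highest PBS library. The log2 fold change against RANKL was 2.01 ± 0.42 (adjusted p = 0.00757), and 2.42 without vitamin replicate 2. Kpna2 (importin alpha 1), whose mRNA is abundant in dividing cells, gave another order: 13.3, 25.7 and 13.9 FPKM in PBS, 17.4, 52.5 and 21.2 with RANKL, and 22.5, 51.2 and 30.0 with the vitamins. Replicate 2 was highest in each group, the groups overlapped, and no comparison passed the test in the model of all 9 libraries (log2 fold change against RANKL 0.33 ± 0.42, adjusted p = 0.58). Against PBS it was called without RANKL replicate 2 (0.97, adjusted p = 0.0387), with DESeq2 and with a replicate block. Within the summed FPKM of the 5 importin alphas, Kpna4 made up 35.2%, 11.6% and 32.4% with the vitamins, against 13.6%, 8.65% and 15.2% with RANKL and 18.6%, 14.3% and 21.9% in PBS. Kpna2 made up 48.7% in RANKL replicate 2 and 43.9% in vitamin replicate 2, and 17.6% to 36.6% in the other libraries. Kpna1 and Kpna3 rose by 0.82 ± 0.13 (adjusted p = 0.0027) and 0.85 ± 0.16 (adjusted p = 0.00541), without overlap, while Kpna6 stood at 0.27 (adjusted p = 0.0802).

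**Figure D3:**
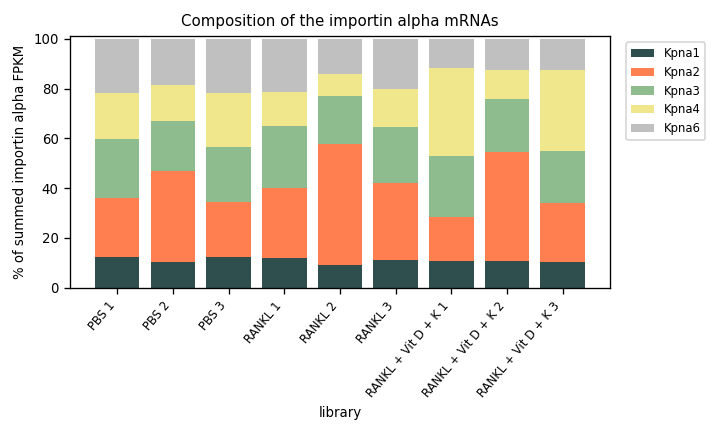
Stacked bars give the percent of the summed importin alpha FPKM that each of 5 genes holds in each of the 9 libraries. Kpna4 takes 35.2% and 32.4% in vitamin replicates 1 and 3 and 11.6% in replicate 2, where Kpna2 takes 43.9%.

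Of 8 members of the importin beta class 5 rose against RANKL (Ipo5, Ipo7, Ipo9, Kpnb1 and Ipo4). Ipo5, which imports ribosomal proteins and core histones, was at 15.4, 17.3 and 14.0 FPKM in PBS, at 23.4, 32.1 and 22.6 with RANKL and at 67.4, 39.8 and 57.4 with the vitamins. The groups stood in separate ranges (log2 fold change against RANKL 1.26 ± 0.23, adjusted p = 0.00454). Kpnb1, the importin beta that works with the alphas, was at 22.0, 22.7 and 24.4 in PBS, at 22.7, 39.0 and 24.3 with RANKL and at 41.3, 46.4 and 41.8 with the vitamins (0.75 ± 0.17, adjusted p = 0.00969). RANKL replicate 2 lay close to the vitamin libraries for this gene. Ipo13, which works in both directions, was the only member called lower in the model of all 9 libraries. Its FPKM was 29.0, 22.3 and 26.1 in PBS, 25.7, 22.3 and 23.4 with RANKL and 15.1, 23.9 and 16.4 with the vitamins. Vitamin replicate 2 lay within the other groups, the call against PBS (-0.48, adjusted p = 0.0374) held in 3 of 9 fits with a library left out, and the change against RANKL was not called (-0.24, adjusted p = 0.273). The ratio of Ipo5 to Ipo13 FPKM was 0.531 to 0.775 in PBS, 0.909 to 1.44 with RANKL and 4.48, 1.66 and 3.50 with the vitamins. For Ipo8 (0.02 ± 0.10, adjusted p = 0.916) and Ipo11 (-0.16 ± 0.16, adjusted p = 0.459) no change against RANKL was detected.

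Of 3 transportins 2 rose against RANKL, and of 6 exportins 4 rose. Tnpo1, which imports RNA-binding proteins such as hnRNP A1, was at 15.2, 15.6 and 16.6 FPKM in PBS, at 14.5, 17.3 and 16.0 with RANKL and at 36.9, 22.2 and 32.6 with the vitamins (1.11 ± 0.21, adjusted p = 0.00531). Its close relative Tnpo2 rose by 0.79 ± 0.17 (adjusted p = 0.00877). Tnpo3, the importer of SR splicing factors, stayed at 5.10 to 7.56 FPKM with the vitamins and 5.76 to 7.88 with RANKL (-0.03, adjusted p = 0.867). It shares 411 exonic bases with Irf5 on the other strand, which fell by 1.3 on the log2 scale and had 2.41 times its counts. Xpot (ENSMUSG00000034667, chr10:121587380-121626332, - strand), the exporter of mature tRNAs, had the lowest adjusted p of the members. It was at 18.3, 16.2 and 17.7 FPKM in PBS, at 19.5, 21.4 and 18.0 with RANKL and at 42.1, 44.9 and 39.7 with the vitamins. The vitamin libraries lay close together and far above the others, replicate 2 included, while PBS and RANKL overlapped (log2 fold change 1.25 ± 0.10, adjusted p = 0.000259, and 0.05 for RANKL against PBS). Xpo1, the exporter of proteins with a leucine-rich signal and of ribosomal subunits, was at 8.68, 11.1 and 10.3 in PBS, at 13.1, 23.2 and 14.9 with RANKL and at 33.8, 29.9 and 31.9 with the vitamins. Its 3 groups stood in separate ranges, with RANKL between the others (against RANKL 1.07 ± 0.20, adjusted p = 0.00448; RANKL against PBS 0.63, adjusted p = 0.116). Of the other exportins, Xpo4 and Xpo6 rose by 0.85 (adjusted p = 0.00852) and 0.51 (adjusted p = 0.0405), and the call of Xpo6 was kept in 1 of 9 fits with a library left out. Xpo5, which takes out pre-miRNAs, and Xpo7 stood at 0.26 (adjusted p = 0.0709) and 0.25 (adjusted p = 0.0712). Kpna4, Nup62, Nup54, Ipo5, Xpot, Nup205, Nup98, Tnpo1, Nup188 and Xpo1 had the largest changes among called members without overlap, and each was called in all 9 fits that left out 1 library, as were 24 of the 31.

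**Figure D4:**
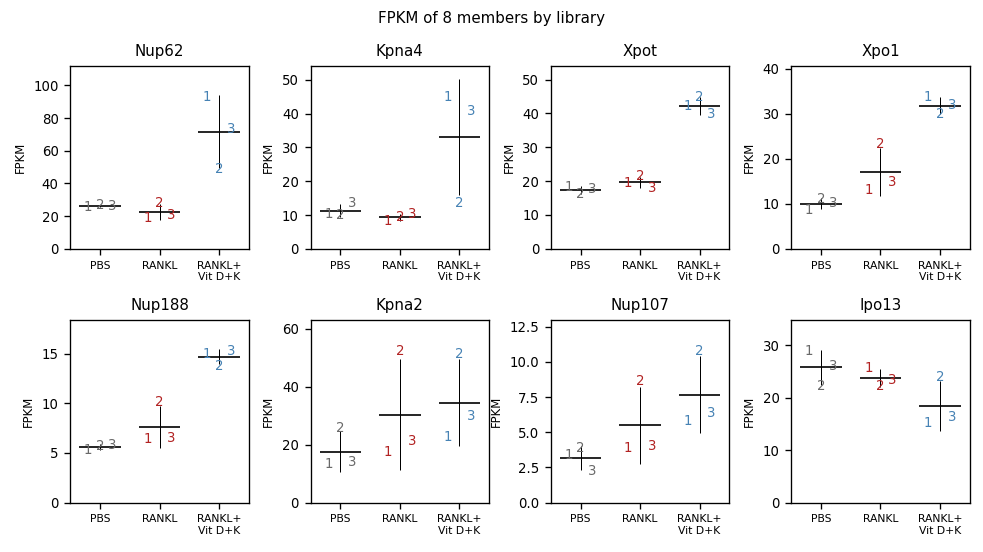
FPKM of 8 members in each library, from 0; digits are the replicate numbers, horizontal lines the group means and vertical lines 1 SD (n = 3). Replicate 2 is the lowest vitamin library for Kpna4 (13.5) and Nup62 (48.7) and the highest for Kpna2 (51.2), Nup107 (10.8) and Ipo13 (23.9), while Xpot separates the vitamin group (39.7 to 44.9) from the rest.

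Replicate 2 of the RANKL and vitamin groups was often the highest or lowest library of its group. RANKL replicate 2 was the highest RANKL library for 44 of 47 members, against 47.1% of all tested genes. Among the vitamin libraries, replicate 2 was the lowest for 22 members and the highest for 21, against 28.7% and 55.8% of tested genes. PBS replicate 2 was the highest for 19 members and the lowest for 13, against 41.1% and 30.4%. Vitamin replicate 2 was the lowest vitamin library for 21 of the 31 members that rose, and the highest for 13 of the 16 that did not pass the test. All 26 genes of a mitosis list were highest in replicate 2 of every group. Their summed FPKM was 63.1, 239.0 and 61.0 in PBS, 132.3, 501.1 and 176.3 with RANKL and 314.6, 538.0 and 393.6 with the vitamins. A list of 31 DNA replication genes followed (94.9, 134.0 and 95.2 in PBS, 149.1, 396.9 and 144.6 with RANKL, 251.5, 443.6 and 263.1 with the vitamins). Summed macrophage markers were 4533, 11576 and 6218 with the vitamins and 16672 to 24298 with RANKL. Most of that sum was Lyz2, and vitamin replicate 2 was the highest vitamin library for 4 of the 8 markers. The part of cell division or of cell composition in the members' values was not tested. Without RANKL replicate 2 the count of members that rose against RANKL was 36 (14.2% of tested genes rose) and the members' median 0.92. Without vitamin replicate 2 it was 32 (21.2% of tested genes), with 1 lower (Ipo13) and a median of 0.77.

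Markers of other marrow cells moved as well. Of 9 tested neutrophil markers 7 fell with the vitamins against RANKL, and their summed FPKM over 10 genes was 53.1 to 187.6 with RANKL, 107.9 to 260.9 in PBS and 15.1 to 32.7 with the vitamins, where 6 or 7 of the 10 were at 0. Summed B cell markers were 7.16 to 10.0 with RANKL and 0.053 to 0.803 with the vitamins. Stromal markers summed to at most 0.604 FPKM in any library. The part of these cells in the members' values was not tested.

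Transport needs more than the members. Of 8 tested genes of the Ran cycle 1 rose against RANKL (Ranbp3, an aid to Xpo1) and 6 against PBS, with medians of 0.38 and 1.04. Ran was at 33.2, 46.7 and 33.3 FPKM in PBS, at 47.7, 97.0 and 44.8 with RANKL and at 79.9, 120.7 and 76.0 with the vitamins (against RANKL 0.70, adjusted p = 0.075; against PBS 1.3, adjusted p = 0.00566). Rcc1, which loads Ran with GTP in the nucleus, rose against PBS (0.91, adjusted p = 0.0078), as did Rangap1, which sets off GTP hydrolysis in the cytoplasm (1.14, adjusted p = 0.0287), Ranbp1, its helper (1.5, adjusted p = 0.0182), and Nutf2, which brings Ran back to the nucleus (0.73, adjusted p = 0.0348). None of these 4 passed the test against RANKL (0.40, 0.65, 0.32 and 0.10, with adjusted p of 0.161, 0.178, 0.572 and 0.766), and each was highest in replicate 2 of the RANKL and vitamin groups. Cse1l, the exportin that recycles importin alpha, rose against RANKL from 10.1, 16.6 and 11.0 to 18.9, 20.1 and 18.9 FPKM (0.78 ± 0.15, adjusted p = 0.00606). Nxf1, the main mRNA exporter, rose by 0.46 ± 0.13 (adjusted p = 0.0257), and its partner Nxt1 stood at 0.38 (adjusted p = 0.0926). Of 9 transport receptors and adaptors with names outside the pattern 4 rose against RANKL (Cse1l, Nxf1, Nmd3 and Hikeshi) and 0 fell. Of 8 pore components with other names 2 rose (Gle1 and Ahctf1) and 0 fell, and of 23 mRNA export genes 10 rose and 1 fell (Alyref2, median 0.37).

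Other groups of genes are given for scale. Of 40 ribosome biogenesis genes 27 rose against RANKL and 0 fell (median 0.69), and of 20 cytosolic aminoacyl-tRNA synthetases, the enzymes that load the tRNAs that Xpot exports, 16 rose and 0 fell (median 1.43). DNA replication genes gave 1 of 31 higher (median 0.60), and mitosis genes 0 of 26 (median 0.80), with 1 at an unadjusted p under 0.05. DNA replication gave 27 of 31 and mitosis 13 of 26 higher against PBS. The medians of these 4 lists thus lay between 0.60 and 1.43, on both sides of that of the members (0.71).

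Of the 47 members, 9 overlap a gene that has over 10% of their own counts (Nup62, Nup88, Tnpo3, Nup214, Nup35, Nup93, Nup210l, Tpr and Xpo7). For Nup93, Nup210l and Xpo7 the overlap with that gene holds 0 bases that are exonic in both. Ipo4 shares 2583 of its 4669 exonic bases with Gm49378 on the same strand, which had 0.017 times its counts. The table also holds a pseudogene named after Kpna2. The part of reads from other genes in the members' counts was not tested.

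The promoters of the members were read for common motifs, since many members moved together. A RefSeq promoter (GRCm38.p6, 250 bases before the start) was matched by symbol for 37 members, with 44 promoters in all. The CACGTG E-box, the site read by Myc, Usf and Mitf/Tfe factors, was found in promoters of 7 members, all 7 among the 26 that rose against RANKL and 0 among the 11 that did not. It was in 15.9% of the 44 member promoters and 6.02% of all 32851 promoters of that length, which are not limited to genes tested here. Counted by gene, it was in at least 1 promoter of 7 of the 37 members. The same held for 12.8% of the 2099 tested genes that rose, 7.79% of the 2117 that fell and 9.23% of the 6768 not called. The windows below show each of these E-boxes in capitals with up to 20 bases on either side, 5′ to 3′ on the gene's strand.
Ipo7, chr7:110018158-110018203, + strand: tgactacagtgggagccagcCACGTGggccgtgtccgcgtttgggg
Nup188, chr2:30286330-30286375, + strand: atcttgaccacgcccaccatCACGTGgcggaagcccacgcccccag
Nup188, chr2:30286372-30286415, + strand: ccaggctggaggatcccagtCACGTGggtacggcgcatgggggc
Nup54, chr5:92435274-92435319, - strand: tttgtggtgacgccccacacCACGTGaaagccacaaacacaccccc
Nup93, chr8:94214369-94214414, + strand: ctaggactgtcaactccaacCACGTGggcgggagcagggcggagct
Ranbp2, chr10:58446745-58446790, + strand: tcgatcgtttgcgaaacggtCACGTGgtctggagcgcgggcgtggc
Tnpo2, chr8:85036718-85036763, + strand: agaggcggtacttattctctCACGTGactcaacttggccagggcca
Tnpo2, chr8:85036757-85036802, + strand: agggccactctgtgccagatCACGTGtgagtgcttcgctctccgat
Xpot, chr10:121626538-121626582, - strand: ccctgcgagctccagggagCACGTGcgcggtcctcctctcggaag

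Nup188 and Tnpo2 hold the motif at 2 places each, and in Nup188 the nearer one ends 18 bases before the start. All are palindromes, so each reads the same on both strands. The motifs below were searched on both strands as well. Their shares of all promoters are again not limited to genes tested here. The ETS motif CCGGAAG was in 18.2% of member promoters and 6.91% of all, the GC box GGGCGG in 59.1% and 32.7%, CCAAT in 45.5% and 33.8%, the NRF1 core GCGCATGC in 9.09% and 2.26%, and the CRE TGACGTCA in 4.55% and 1.55%. By call against RANKL, the ETS motif was in 3 of the 26 members that rose and 4 of the 11 that did not, the GC box in 18 and 6, CCAAT in 13 and 5, the NRF1 core in 2 and 2, and the CRE in 1 and 1. The E-box split is 1 of these 7 motifs and was not tested. The TGATGNAA half-site read by Atf4 was in 0 of the 44 and in 3.45% of all promoters. These are letter matches, not bound sites, and no match says only that these letters are not in the window.

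The promoters of the members with the largest changes against RANKL, Kpna4 (chr3:69127093-69127342, - strand) and Nup62 (chr7:44815838-44816087, + strand), hold none of these E-boxes. They are shown with that of Ipo8 (chr6:148831468-148831717, - strand), whose log2 fold change was 0.02, with every match of the 7 motifs in capitals.
Kpna4: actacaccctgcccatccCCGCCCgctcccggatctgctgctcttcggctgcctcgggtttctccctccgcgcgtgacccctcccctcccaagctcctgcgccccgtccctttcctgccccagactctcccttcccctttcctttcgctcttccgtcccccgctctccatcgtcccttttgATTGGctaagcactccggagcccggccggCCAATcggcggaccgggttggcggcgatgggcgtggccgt
Nup62: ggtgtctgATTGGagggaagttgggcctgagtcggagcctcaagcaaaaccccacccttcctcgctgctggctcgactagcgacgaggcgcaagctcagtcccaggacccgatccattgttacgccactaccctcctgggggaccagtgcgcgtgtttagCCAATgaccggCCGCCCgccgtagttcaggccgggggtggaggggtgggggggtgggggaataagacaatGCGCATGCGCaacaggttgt
Ipo8: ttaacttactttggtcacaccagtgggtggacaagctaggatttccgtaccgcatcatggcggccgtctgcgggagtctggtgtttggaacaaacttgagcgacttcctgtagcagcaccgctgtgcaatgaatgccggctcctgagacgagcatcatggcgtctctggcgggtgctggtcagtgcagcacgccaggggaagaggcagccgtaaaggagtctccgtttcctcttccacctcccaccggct

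Kpna4 and Nup62 each hold CCAAT at 2 places and 1 GC box. In Nup62 overlapping matches of the NRF1 core end 12 and 10 bases before the start. Ipo8 holds none of the 7 motifs.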

How the data were processed

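Poly(A) RNA libraries of BMDMs were sequenced as paired-end reads of 150 bases. The authors deposited whole-number counts per gene, not normalised, and FPKM values, which the authors scaled to transcript length and library. The submitters' processing notes name cutadapt 1.9, HISAT2 2.0.4, StringTie 1.3.4d and edgeR without giving their roles. Strand use and the handling of shared reads are not given in the sources used here. The build named in the notes is a human one, while 43 of 47 members, and 87% of genes, have the coordinates of GENCODE M21 (GRCm38).

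Counts were compared in R 4.3.3 with edgeR 4.0.16 (filterByExpr, TMM, quasi-likelihood test, 1 model of 9 libraries, Benjamini-Hochberg adjustment over 17002 genes, threshold 0.05). The standard error is the log2 fold change over the square root of F. DESeq2 1.42.0, limma 3.58.1 on log2(FPKM + 0.1) or log2(FPKM + 1), other scaling and filters, a replicate block and 9 fits without 1 library were alternatives. The code was tested on simulated data. Replicate numbers paired RANKL and PBS libraries by the data alone (correlations of same-numbered deviations 0.122, 0.219 and 0.155).

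Members named with values were those with the largest called changes without overlap (10 against RANKL, 5 in the other comparisons), a leading member of each role, and those of highest and lowest mean FPKM; all other members and genes given with values were added once values had been looked at. The members and all gene lists and motifs were chosen with earlier results of these data known. The value 4 occurred 2.22 times as often as the average of its neighbours 3 and 5, so the unit of a count may not be 1 read. An exact permutation test of 3 against 3 libraries cannot give a two-sided p below 0.1 and was not used.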

Additional observations from a re-analysis of the deposited data

How the results depend on the processing

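Members higher, RANKL against PBS: the count of 0 was 4 with DESeq2, 4 with only these 2 groups in the model (6.32% of tested genes rose), 1 with the replicate block, and 0 to 5 over fits that each left out 1 library (5 without vitamin replicate 2). The median log2 fold change of members with the vitamins was 0.51 against RANKL and 0.78 against PBS on log2(FPKM + 1), and 0.64 to 0.92 and 0.87 to 1.01 with a library left out. Members lower against RANKL were 0 to 1 with a library left out. The 1 member lower against PBS (Ipo13) was lost without the filter, with only 2 groups and with the block (0 each), and the count was 0 to 1 with a library left out, the 1 being Ipo13 in 3 fits and Nup210l without vitamin replicate 3. Members higher with the vitamins numbered 31 against RANKL and 38 against PBS, 25 and 34 to 35 with limma, and 24 to 36 and 31 to 40 with a library left out. The background against PBS moved as well. With limma 3188 to 3228 of 17027 tested genes were higher, and with the replicate block 3470 of 17002. With a library left out, 2469 of 17767 (without PBS replicate 1) to 4143 of 17806 (without vitamin replicate 2) were higher. Of the values for the 20 members named by rule, over 3 comparisons and these settings, 981 kept direction and call, 14 gained the call, 25 lost it and 0 changed direction among called ones. Same-numbered deviations correlated at 0.00625, 0.0428 and 0.107 between vitamin and RANKL libraries and at -0.0216, 0.0217 and 0.0237 between vitamin and PBS libraries, not above 0.1 for every pair. Replicates 2 and 3, but not 1, correlated best with their own number in both. The block gave 35 calls against RANKL (17.4% of tested genes rose; the 31, with Nup107, Nup210, Nup37 and Nup85 gained) and 37 against PBS (Kpna2 gained, adjusted p = 0.00314; Nup214 and Seh1l lost). On log2(FPKM + 0.1) the median of all genes against RANKL was -0.17, in place of -0.04, with 2123 higher and 3774 lower calls in place of 2796 and 2929. The causes were not tested. Each call rests on 3 libraries a group.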
